A study of Mus musculus with 2 samples.

Results

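The 10 genes described here encode growth factors and receptors of the HGF, FGF and PDGF families in denervated mouse muscle. They were *Hgf* with its receptor *Met*, the FGF ligands *Fgf2* and *Fgf7* with the receptors *Fgfr1* and *Fgfr2*, and the PDGF chains *Pdgfa* and *Pdgfb* with the receptors *Pdgfra* and *Pdgfrb*. They were taken by symbol, 1 row each, from the 32287 rows of the gene tables. The rule used no measured value, but the list was drawn up with earlier results of these data known. A further 49 genes of the same pathways, among them other ligands, co-receptors, adaptors and feedback inhibitors, were followed by counts.

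The series held 2 droplet single-cell RNA-Seq libraries, 1 for each treatment, from hind limb muscle of pooled male *S100GFP*-tg mice aged 10 to 16 weeks, in which the S100B promoter drives enhanced GFP. The labels give the strain as C57BL/6J. All mice had a crush of the peroneal nerve, and the muscle was collected on day 7. One library came from mice injected with goat anti-mouse IgG and the other from mice injected with an SPP1 neutralizing antibody (SPP1-nAb). Each injection went into the tibialis anterior muscle, held 2 µg of antibody in 10 µL and was repeated every 2 days. The paper names the tibialis anterior as the muscle of these libraries. SPP1 (osteopontin) is a secreted matrix protein.

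The labels call both libraries S100GFP-positive, whereas the protocol names sorts of GFP+ and of GFP- live cells. The data held a mixture of cell types. Of 21046 IgG and 22282 SPP1-nAb cells that passed the filters, 10726 and 13718 were mononuclear phagocytes and 429 and 437 were Schwann cells. In CPM, the counts of a gene scaled to the total of the same cells, the 2 GFP rows of the gene table together had a level of 502 and 458 in Schwann cells and of 238 and 294 in mononuclear phagocytes.

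HGF is stored in an inactive form bound to matrix and is switched on by cleavage. It then signals through the tyrosine kinase MET and is known for waking quiescent muscle stem (satellite) cells. FGFs bind their receptor tyrosine kinases together with heparan sulfate chains, and FGF2 is a classic mitogen of satellite cells and fibroblasts. PDGF chains pair into dimers. PDGFRα is the usual marker of fibro-adipogenic progenitors (FAPs), the connective tissue progenitors of muscle, and PDGFRβ is the usual receptor of pericytes. All of these receptors feed the ERK kinase cascade, which induces its own inhibitors such as Sprouty proteins.

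A level is given as CPM, the unique molecular identifiers (UMIs, each standing for a captured transcript) of a gene over all UMIs summed across the cells of a class in a library. The range in parentheses is its exact 95% Poisson interval. Ratios are log2 of SPP1-nAb over IgG with an exact 95% interval in brackets. With 1 library per treatment there was no replicate, so no p-value was computed. The intervals cover counting error only, not the differences between mice, injections or preparations. A cell was given a class by marker genes, and none of the 10 genes was a marker. The classes held 2936 IgG and 1383 SPP1-nAb mesenchymal cells, 135 and 96 mural cells, 404 and 328 endothelial cells, 898 and 609 myogenic cells, 944 and 875 dendritic cells and 412 and 938 neutrophils. T and NK cells (33 and 52) and B cells (5 and 3) were too few for most levels. Of 30 further markers kept apart as a check, 26 had their highest level in their own class in both libraries. The other 4 were *Cd24a*, *Il7r*, *Cd22* and *Blk*.

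Of the 10 genes, 7 had an upstream window in the RefSeq promoter table, which is on the older build GRCm38.p6. The 250 bases before the start are printed for *Fgf2*, *Fgf7* and *Pdgfra*, since these genes had their highest level in the same class, the mesenchymal cells. The windows are at chr3:37348403-37348652, chr2:126034408-126034657 and chr5:75152001-75152250, all on the plus strand. Each is written 5′ to 3′ and capitals mark the CG dinucleotides.
Fgf2: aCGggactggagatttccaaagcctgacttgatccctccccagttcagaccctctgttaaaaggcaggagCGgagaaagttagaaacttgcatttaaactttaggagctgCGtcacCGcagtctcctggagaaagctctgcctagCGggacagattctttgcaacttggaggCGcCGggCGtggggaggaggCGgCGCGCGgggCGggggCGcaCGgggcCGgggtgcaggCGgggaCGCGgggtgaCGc
Fgf7: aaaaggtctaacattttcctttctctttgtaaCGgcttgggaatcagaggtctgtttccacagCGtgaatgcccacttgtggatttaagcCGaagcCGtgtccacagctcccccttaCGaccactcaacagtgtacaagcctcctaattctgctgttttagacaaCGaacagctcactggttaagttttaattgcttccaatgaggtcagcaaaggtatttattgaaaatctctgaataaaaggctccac
Pdgfra: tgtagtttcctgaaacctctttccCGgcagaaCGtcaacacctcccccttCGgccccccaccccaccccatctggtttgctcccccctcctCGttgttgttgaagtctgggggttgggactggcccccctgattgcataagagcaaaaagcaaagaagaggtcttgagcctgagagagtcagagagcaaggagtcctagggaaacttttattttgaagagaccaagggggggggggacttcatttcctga

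The windows did not look alike. *Fgf2* had 20 CG dinucleotides, more than 82.1% of the 32851 windows in the table, whereas *Fgf7* had 6 and *Pdgfra* had 4 against a median of 6. The GC box GGGCGG, searched on both strands, was present once in the *Fgf2* window and in neither of the other two. It was found in 32.7% of all windows. None of the 3 windows held TATAAA on either strand, which 12.4% of all windows had, or the AP-1 motif TGANTCA, which 6.75% had. These matches describe the letters only.

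Positions are those of GRCm39, the build in the labels. *Hgf* lies at chr5:16758041-16828178, *Met* at chr6:17463749-17573979, *Fgf2* at chr3:37402473-37464257, *Fgf7* at chr2:125876578-125934218 and *Fgfr1* at chr8:26003670-26066824. *Pdgfa* lies at chr5:138961758-138983435, *Pdgfb* at chr15:79880009-79899181 and *Pdgfra* at chr5:75311994-75358876, and *Pdgfrb* is on chromosome 18. In the annotation used here for positions, *Fgfr2* covers chr7:129763471-132725079 on the minus strand. That span takes in many other genes, among them *Ate1* and *Ctbp2* on the same strand. Whether the annotation behind the deposited counts had this span was not tested. *Fgf2* overlaps *Nudt6* and *Fgf7* overlaps *Fam227b*, each on the opposite strand.

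**Figure D1:**
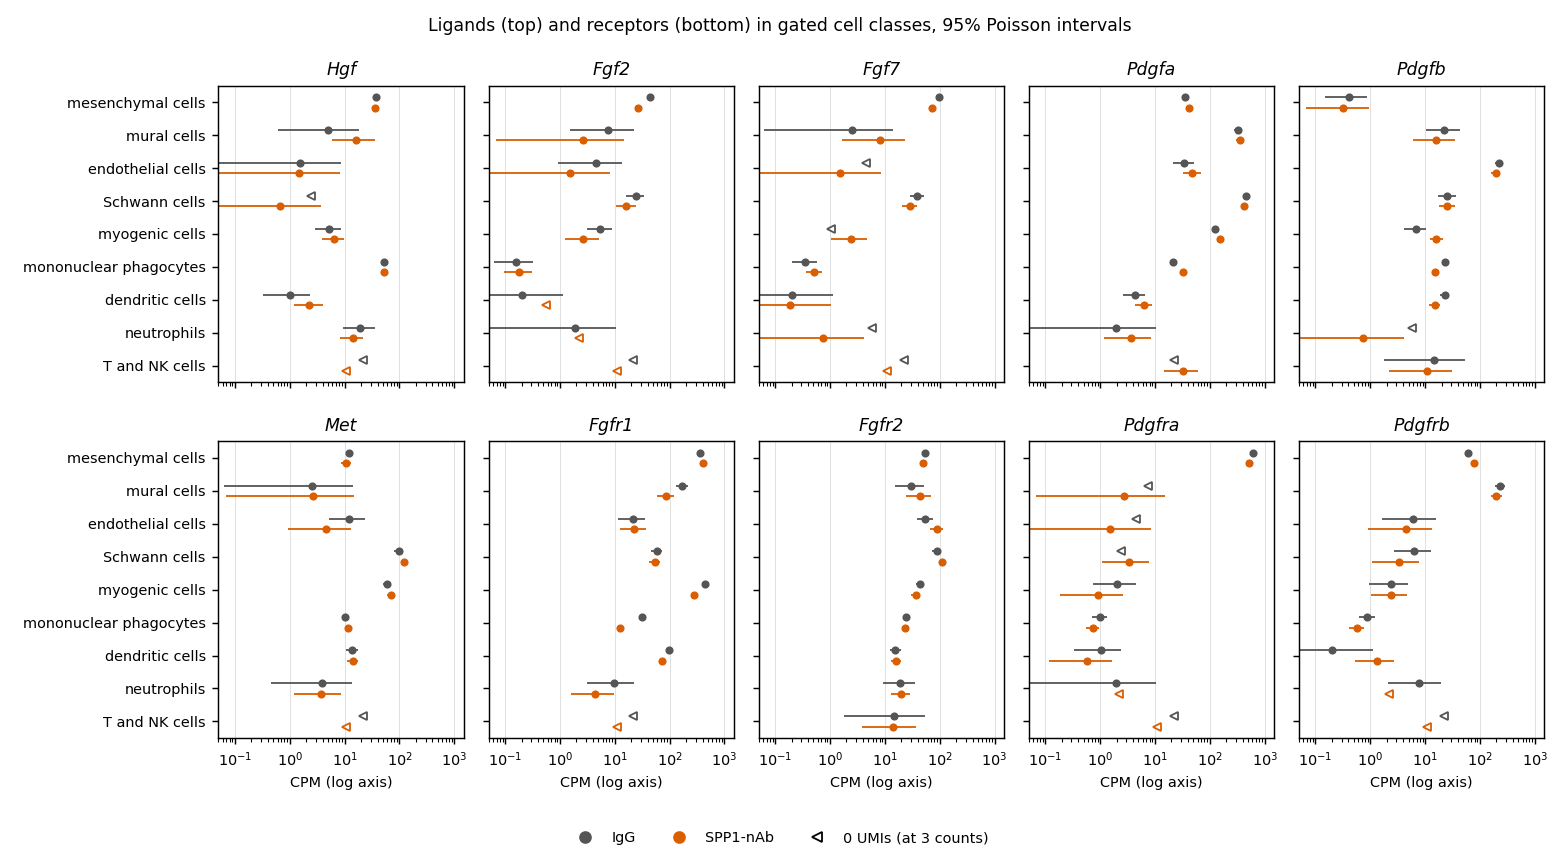
CPM (log axis) of the 5 ligands and 5 receptors in 9 cell classes, IgG in gray and SPP1-nAb in orange. Points are levels, lines are 95% Poisson intervals (cut off at the left edge where they reach below it), and open triangles stand for 0 UMIs at the level of 3 counts. *Pdgfra* was found almost only in mesenchymal cells, *Pdgfb* had its highest level in endothelial cells and *Hgf* in mononuclear phagocytes and mesenchymal cells.

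The HGF ligand and its receptor had their highest levels in different cells. *Hgf* had 51.7 (49.6 to 53.8) CPM in IgG and 51.8 (50.2 to 53.5) CPM in SPP1-nAb mononuclear phagocytes, and 38.1 (35 to 41.4) and 36.4 (32.6 to 40.5) CPM in mesenchymal cells. The numerous phagocytes carried 79.7% and 90.4% of the *Hgf* UMIs of all gated cells. These shares depend on the mix of sorted cells in each library, where mesenchymal cells were 14% of kept IgG and 6.21% of kept SPP1-nAb cells. Neutrophils had 19.2 and 14 CPM from 10 and 19 UMIs and mural cells 5.02 and 16.2 CPM from 2 and 6 UMIs, with overlapping intervals. Schwann cells held 0 and 1 *Hgf* UMI. The shares of cells with a UMI were also taken with each cell thinned to 2000 UMIs, leaving out cells under that depth. *Hgf* was then seen in 8.69% and 8.60% of phagocytes. It was seen in 0 of 326 and 0 of 384 Schwann cells (exact binomial upper limits 1.13% and 0.956%). Without thinning the phagocyte shares were 15.5% and 18.7%, and the median phagocyte held 3955 and 5040 UMIs.

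Within the phagocytes, *Hgf* varied with the subset. Lipid-handling cells, which carry *Gpnmb* and *Fabp5*, had 86.2 (79.1 to 93.8) CPM in IgG and 76.3 (72.4 to 80.5) CPM in SPP1-nAb. Resident cells, which carry *Lyve1* and *Cd163*, had 28.4 (24.9 to 32.3) and 28.5 (24.3 to 33.1) CPM. The intervals of these subsets were far apart in both libraries, and the inflammatory (62.9 and 49.3), interferon-response (51.5 and 38.4) and monocyte-type (46.7 and 43.7) subsets lay between them. Over the whole class the libraries differed by less than the counting interval (log2 ratio 0.00 [-0.07 to 0.08]). The lipid-handling share of the phagocytes was 10.6% in IgG and 20.1% in SPP1-nAb, and with the subsets mixed as in the IgG library the ratio was -0.16. Among the 3 main mesenchymal subsets, *Hgf* was highest in FAP-type cells (51.6 and 42.8 CPM), lower in the adventitial-type subset (27.4 and 19.3) and lowest in the tenocyte-type subset (5.87 and 8.41), where the IgG and SPP1-nAb values came from 11 and 12 UMIs. Mesenchymal cells of no subset (320 and 157) had 32.7 (24.4 to 42.9) and 64.8 (50.01 to 82.6) CPM, in SPP1-nAb above the FAP-type interval.

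*Met* was highest in Schwann cells, the glia of the nerve, at 97.6 (81.0 to 117) CPM in IgG and 123 (106 to 143) CPM in SPP1-nAb. Myogenic cells came next at 59.7 (51.2 to 69.3) and 68.8 (60.2 to 78.3) CPM. The intervals of these 2 classes did not overlap within either library. The dendritic, mesenchymal, phagocyte and endothelial levels were between 4.51 and 14 CPM. In neither class did the libraries differ by more than the counting interval (log2 ratio 0.34 [-0.00 to 0.68] in Schwann cells and 0.20 [-0.09 to 0.50] in myogenic cells), which leaves room for a difference of up to 0.68.

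*Met* varied widely within classes. Tenocyte-type mesenchymal cells had 42.1 and 53.3 CPM, while FAP-type cells had 1.55 and 1.09 CPM. The adventitial-type level was 20.6 (16.1 to 26) CPM in IgG and 5.19 (2.09 to 10.7) CPM in SPP1-nAb, from 70 and 7 UMIs. Among phagocytes, *Met* was 26.1 (20.4 to 33.0) and 15.5 (12.9 to 18.5) CPM in the inflammatory subset and 0.959 and 1.02 CPM in resident cells. In the satellite-type myogenic subset, the muscle stem cells, it was 62.9 and 62.5 CPM. Phagocytes that held a UMI of both *Hgf* and *Met* were 0.141% and 0.199% of the thinned cells, against 0.131% and 0.168% as the product of the separate shares.

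Schwann cells were also divided by *Reln*, a secreted guidance protein that earlier work on these libraries had already set beside *Met* and *Fgfr2*, so the pattern is described and not tested. Cells with 2 or more *Reln* UMIs (129 and 168 cells) had 166 and 204 CPM of *Met*, and cells with 0 *Reln* UMIs (247 and 217) had 48.1 and 30.1 CPM. *Fgfr2* was 116 and 166 against 57.1 and 56.2 CPM. *Fgf7* was 65.5 and 57.0 against 18 and 8.22 CPM. The PDGF ligands had the opposite order: *Pdgfa* was 299 and 318 CPM in the *Reln*-high cells against 553 and 521 CPM. *Pdgfb* was 10.9 and 1.68 CPM, from only 5 and 1 UMIs, against 39.1 and 50.7 CPM from 26 and 37 UMIs. The intervals of the 2 kinds of Schwann cell were apart in both libraries for *Met*, *Fgfr2*, *Fgf7* and *Pdgfa*, and for *Pdgfb* they nearly touched in IgG. *Fgfr1* was alike in both, at 52.4 and 55.3 against 61.6 and 56.2 CPM.

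Both FGF ligands had their highest level in mesenchymal cells and were lower in the SPP1-nAb library. *Fgf2* was 43.9 (40.5 to 47.4) CPM in IgG and 26.6 (23.3 to 30.1) CPM in SPP1-nAb mesenchymal cells, a log2 ratio of -0.72 [-0.94 to -0.51]. *Fgf7*, known as keratinocyte growth factor, was 97.5 (92.5 to 103) and 73.3 (67.9 to 79.0) CPM, a ratio of -0.41 [-0.54 to -0.28]. Schwann cells were the next class for each ligand, with 24 and 16.2 CPM of *Fgf2* and 39.2 and 28.3 CPM of *Fgf7*. Mononuclear phagocytes, at 0.156 and 0.180 CPM of *Fgf2* and 0.356 and 0.511 CPM of *Fgf7*, were near 0. After thinning, a *Fgf2* UMI was seen in 8.12% and 5.12% of mesenchymal cells in IgG and SPP1-nAb (17.0% and 14.3% unthinned), against 0.0704% and 0.0458% of phagocytes. For *Fgf7* the thinned shares were 16.2% and 10.8% of mesenchymal cells (29.8% and 28.3% unthinned).

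The adventitial-type cells, which carry *Pi16* and *Dpp4*, held the most *Fgf2*, at 99.1 (88.8 to 110) CPM in IgG and 62.2 (49.6 to 77.1) CPM in SPP1-nAb. FAP-type cells had 30.2 (26.5 to 34.4) and 21.2 (17.6 to 25.5) CPM. Tenocyte-type cells had the opposite order of libraries, 13.3 (8.63 to 19.7) and 23.8 (16.5 to 33.3) CPM, on 25 and 34 UMIs. *Fgf7* was 134 and 83.7 CPM in adventitial-type cells and 106 and 88.6 CPM in FAP-type cells, and 2.13 and 4.91 CPM in tenocyte-type cells. Adventitial-type cells were 21.7% of IgG and 12.4% of SPP1-nAb mesenchymal cells. With the subsets mixed as in IgG, the *Fgf2* ratio was -0.55, short of 1.5-fold.

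Over all cells these genes differed more than within the class. Mesenchymal cells were 14% of kept IgG cells and 6.21% of kept SPP1-nAb cells. Over all kept cells *Fgf2* was 9.31 and 3.11 CPM, *Fgf7* was 19 and 7.82 CPM and *Pdgfra* was 112 and 47.0 CPM. With 1 library each, the treatment and the preparation of a library cannot be told apart in these shares.

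**Figure D2:**
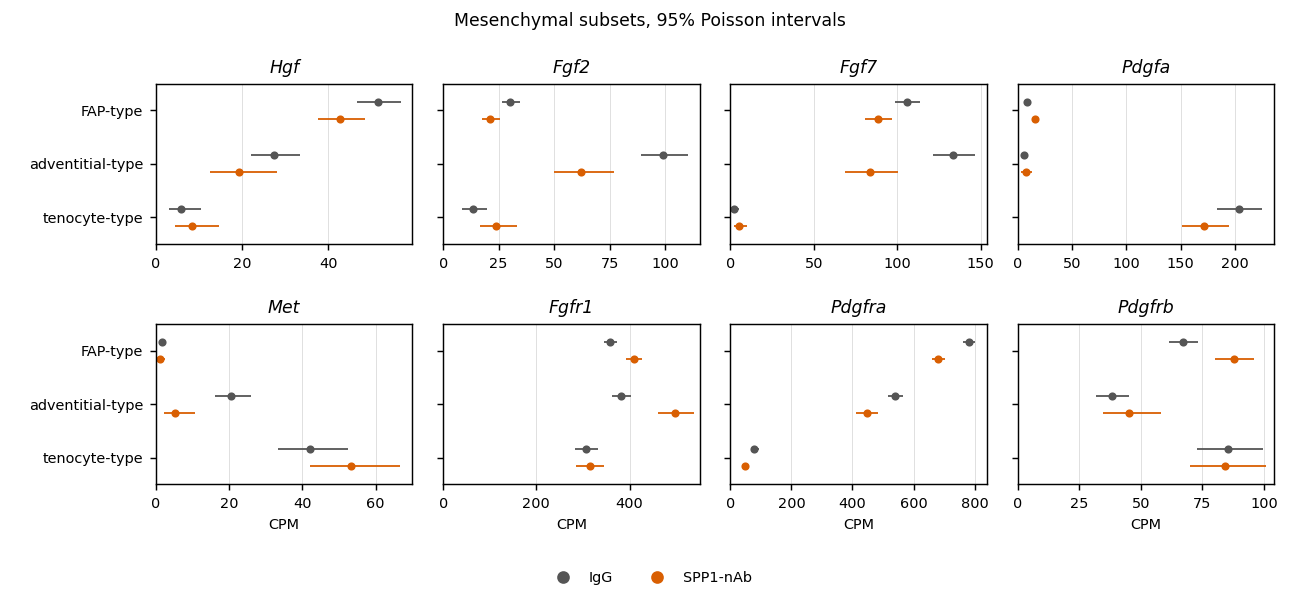
CPM of 8 of the genes in 3 mesenchymal subsets, with IgG in gray, SPP1-nAb in orange and 95% Poisson intervals. *Fgf2* was highest in adventitial-type cells, *Hgf* and *Pdgfra* in FAP-type cells, and *Met* and *Pdgfa* in tenocyte-type cells.

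*Fgfr1* had high levels in mesenchymal and myogenic cells. It was 353 (344 to 363) CPM in IgG and 407 (395 to 421) CPM in SPP1-nAb mesenchymal cells, and 450 (426 to 475) and 275 (258 to 294) CPM in myogenic cells. The order of these 2 classes thus differed between the libraries, with myogenic cells above mesenchymal cells in IgG and below them in SPP1-nAb. Mural cells had 168 (130 to 214) and 86.2 (59.0 to 122) CPM, dendritic cells 98.5 and 72.5 CPM, Schwann cells 59.2 and 53.3 CPM and endothelial cells 21.3 and 22.5 CPM. The log2 ratio was 0.20 [0.14 to 0.27] in mesenchymal cells, where all 3 main subsets had a value above 0 (0.19, 0.38 and 0.03 in FAP-type, adventitial-type and tenocyte-type cells). It was -0.71 [-0.83 to -0.59] in myogenic cells, -0.96 [-1.62 to -0.34] in mural cells, -1.30 [-1.42 to -1.18] in mononuclear phagocytes and -0.44 [-0.64 to -0.25] in dendritic cells.

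In myogenic cells the lower *Fgfr1* level was seen in satellite-type cells (491 and 322 CPM) and in cells of the *Myog* type, which have begun to differentiate (226 and 112 CPM). Myogenic cells of no subset (125 and 122) had 371 and 330 CPM, a log2 ratio of -0.17 [-0.49 to 0.16]. Satellite-type cells were 82.4% of IgG and 70.8% of SPP1-nAb myogenic cells, and the median depth of the class was 2516.5 and 3623 UMIs. At 2000 UMIs per cell the ratio was -0.43, with classes taken from clusters -0.38, with a lead of 1 marker or 20% of doublet scores removed -0.56 and with the IgG subset mix -0.57, all short of 1.5-fold, and 8 of 13 alternatives stayed past it. Cells that got no class still held 2328 and 1832 *Fgfr1* UMIs (216 and 153 CPM) and 693 and 373 UMIs of the myogenic receptor *Fgfr4*. The clusters named myogenic held 2108, 1321, 546 and 257 cells over both libraries, against 898 and 609 gated myogenic cells. The ratio of -0.71 thus covers the gated cells only.

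The phagocyte level of *Fgfr1*, 31.1 (29.5 to 32.8) CPM in IgG and 12.6 (11.8 to 13.5) CPM in SPP1-nAb, was highest in the resident subset. Resident cells had 111 (104 to 118) and 72.1 (65.4 to 79.2) CPM, and the other named subsets had 5.49 to 12.2 CPM. Resident cells were 20.9% of IgG phagocytes and 9.63% of SPP1-nAb phagocytes. With the subsets mixed as in IgG the ratio was -0.68 in place of -1.30. The level was lower in SPP1-nAb within the resident (-0.62 [-0.79 to -0.46]), lipid-handling (-0.78 [-1.20 to -0.35]) and monocyte-type cells (-0.92 [-1.32 to -0.53]), and in inflammatory cells it was 5.52 and 5.72 CPM from 15 and 45 UMIs.

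*Fgfr2* was highest in Schwann cells at 89.6 (73.8 to 108) CPM in IgG and 113 (96.1 to 131) CPM in SPP1-nAb. Endothelial cells had 54.7 (38.3 to 75.7) and 88.7 (67.5 to 114) CPM, so that the intervals of these neighbors overlapped in both libraries. Mesenchymal cells had 54.2 and 50.1 CPM. In immune cells *Fgfr2* had a similar level in several classes, from 14.4 to 24.4 CPM in phagocytes, dendritic cells, neutrophils and T and NK cells. How reads were divided between *Fgfr2* and the genes within its annotated span was not tested. The Schwann ratio was 0.33 [-0.02 to 0.69] and the mesenchymal ratio -0.11 [-0.28 to 0.05].

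*Pdgfa* was highest in Schwann cells, at 462 (425 to 501) CPM in IgG and 422 (390 to 456) CPM in SPP1-nAb, and a UMI of it was seen in 56.7% and 51.8% of Schwann cells after thinning (62.0% and 64.8% unthinned). Mural cells, the contractile cells around vessels, had 329 (275 to 390) and 361 (302 to 427) CPM. Their interval met that of Schwann cells in SPP1-nAb but not in IgG. Myogenic cells had 123 and 155 CPM. Among mesenchymal cells the level was 203 and 172 CPM in the tenocyte-type subset and 16.3 CPM or less in FAP-type and adventitial-type cells. Smooth-muscle-type mural cells had 355 and 394 CPM and pericyte-type cells 209 and 195 CPM, the latter from 21 and 15 UMIs.

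In mononuclear phagocytes *Pdgfa* was 21.3 (20.0 to 22.7) CPM in IgG and 32.3 (31.0 to 33.6) CPM in SPP1-nAb, a log2 ratio of 0.60 [0.49 to 0.71]. The difference was widest in resident cells, with 18.2 (15.4 to 21.3) and 42.9 (37.8 to 48.5) CPM, followed by lipid-handling cells with 26.4 and 38.5 CPM. Interferon-response cells had 21.3 and 22.6 CPM. *Pdgfb*, the other chain, had the opposite order in phagocytes, at 23.1 (21.7 to 24.5) CPM in IgG and 15 (14.1 to 15.9) CPM in SPP1-nAb, a ratio of -0.63 [-0.75 to -0.50]. It was 25.7 and 14.3 CPM in lipid-handling cells and 16.8 and 9.09 CPM in monocyte-type cells, but 22.2 and 22.5 CPM in resident cells. At 2000 UMIs per cell the *Pdgfb* ratio was -0.57, with no doublets removed it was -0.56 and with the subsets mixed as in IgG it was -0.53, all short of 1.5-fold. Dendritic cells also had less *Pdgfb* in SPP1-nAb (22.6 and 15 CPM, ratio -0.60 [-1.03 to -0.17]).

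The highest *Pdgfb* level was that of endothelial cells, which line the vessels. It was 220 (186 to 259) CPM in IgG and 194 (162 to 230) CPM in SPP1-nAb while the next class, Schwann cells, had 25.6 CPM in both. The endothelial ratio was -0.18 [-0.54 to 0.17]. Although their level was lower, the numerous phagocytes carried 76.1% and 77.6% of the *Pdgfb* UMIs of gated cells, against 10.6% and 9.24% for endothelial cells. These shares, too, depend on the mix of sorted cells. Mesenchymal cells were nearly without it, at 0.409 and 0.321 CPM.

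**Figure D3:**
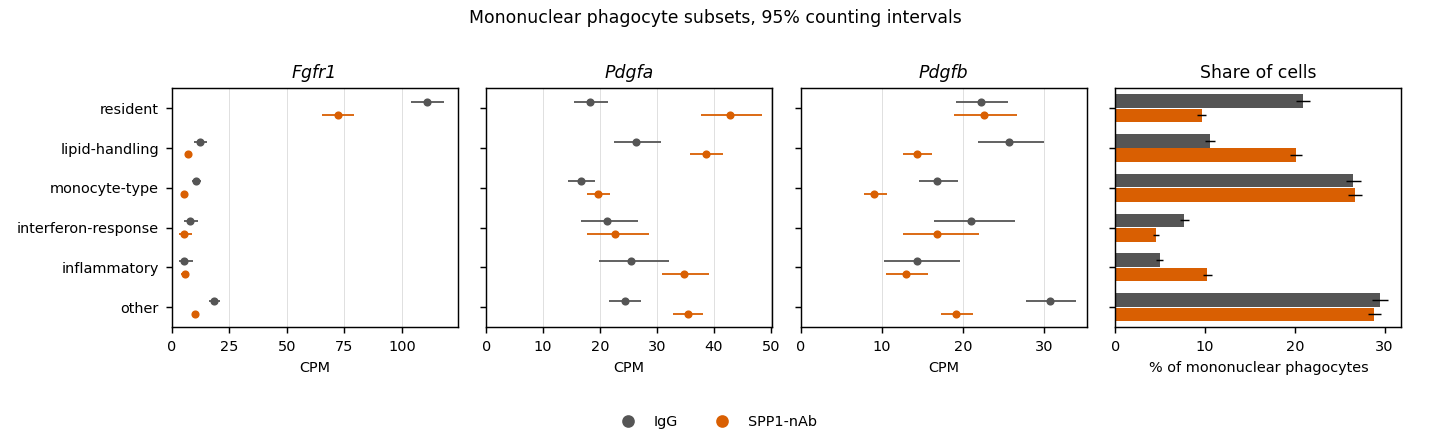
CPM of *Fgfr1*, *Pdgfa* and *Pdgfb* in subsets of mononuclear phagocytes with 95% Poisson intervals, and the share of phagocytes in each subset (bars, with 95% binomial intervals), IgG in gray and SPP1-nAb in orange. Resident cells had the highest *Fgfr1* level in both libraries and their share was 20.9% in IgG and 9.63% in SPP1-nAb.

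*Pdgfra* was the most restricted of the 10 genes. Mesenchymal cells held 99.4% of its gated UMIs in IgG and 98.7% in SPP1-nAb, at 606 (594 to 619) and 517 (503 to 532) CPM. Every other class was at or under 3.37 CPM, with phagocytes at 0.980 and 0.732 CPM. Of thinned mesenchymal cells 59.5% and 49.4% had a *Pdgfra* UMI (72.9% and 66.2% unthinned, with 4559.5 and 6659 UMIs in the median cell), against 0.191% and 0.138% of phagocytes. FAP-type cells had 782 and 680 CPM, adventitial-type cells 540 and 446 CPM and tenocyte-type cells 78.9 and 49.1 CPM. The log2 ratio of the class was -0.23 [-0.28 to -0.18], and all 3 subsets had a value below 0.

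*Pdgfrb* was highest in mural cells, at 233 (188 to 286) and 199 (157 to 250) CPM, and there in the pericyte-type cells, at 577 (438 to 746) and 455 (317 to 633) CPM. Smooth-muscle-type cells had 122 and 131 CPM. Mesenchymal cells had 61.6 (57.7 to 65.8) and 79.0 (73.4 to 84.9) CPM, a ratio of 0.36 [0.22 to 0.50], so the 2 PDGF receptors of this class differed in opposite directions between the libraries. FAP-type cells had 67.1 and 87.7 CPM, while tenocyte-type cells had 85.3 and 84.1 CPM. Mesenchymal cells with UMIs of both receptors were 6.79% and 6.06% of thinned cells, close to the product of the separate shares (6.98% and 6.38%). For *Pdgfa* and *Pdgfra*, both UMIs were found in 0.991% and 1.73% of thinned mesenchymal cells, below the product of 3.65% and 4.43%.

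**Figure D4:**
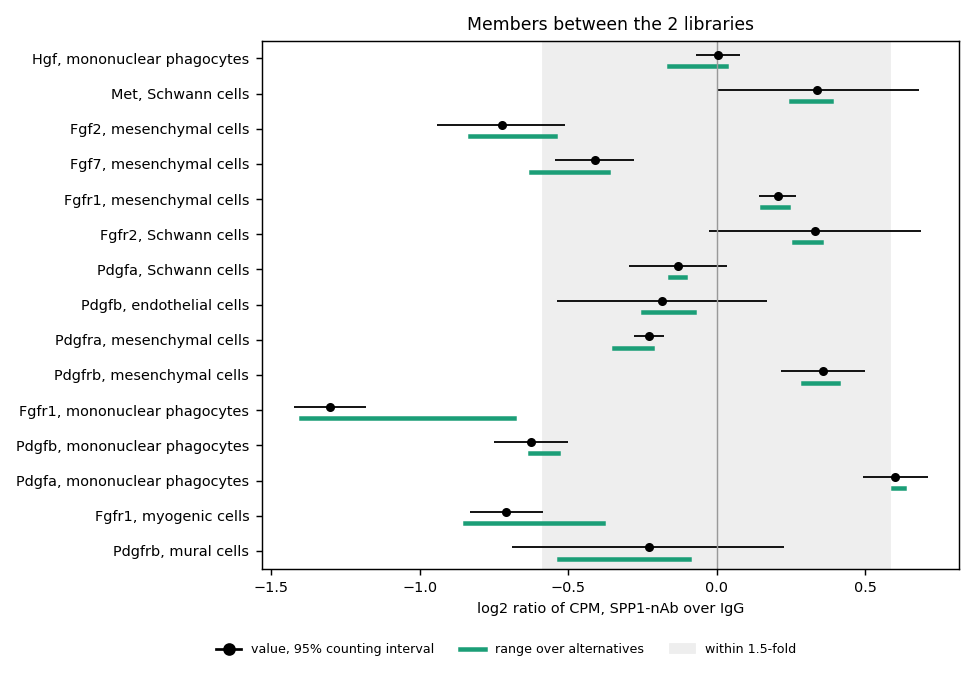
Log2 ratio of CPM, SPP1-nAb over IgG, for each gene in its leading class and for 5 further pairs of gene and class. For *Pdgfrb* the leading class was taken as mesenchymal cells, because mural cells were too few to be counted as one. Black points and lines are the values with 95% counting intervals, green bars the range over the alternative settings, and the gray band marks less than 1.5-fold. *Fgfr1* lay below the band in mononuclear phagocytes under every setting, and *Hgf* stayed inside the band.

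Where a class held at least 100 UMIs of a gene over both libraries, 4 of the 10 genes were past 1.5-fold in at least 1 class. These were *Fgf2*, *Fgfr1*, *Pdgfa* and *Pdgfb*. The matching share of all genes past it in any class was not computed. The shares given below are for single classes and cannot be set beside this count. Pairs under that limit were not counted. Among them were *Fgfr2* in endothelial cells (0.70 [0.07 to 1.34]), *Fgfr1* in mural cells (-0.96 [-1.62 to -0.34]) and *Pdgfb* in myogenic cells (1.23 [0.47 to 2.05]). Among genes with at least 100 UMIs in a class, 9 of the 10 could be judged in mesenchymal cells, and only *Fgf2* was past that size, lower in SPP1-nAb. Over all 10763 genes judged there, 10.6% were past it, 4.78% higher and 5.83% lower. In myogenic cells 4 were judged and *Fgfr1* alone was past it and lower, in 8 of 13 alternatives, where 16.8% of all genes were past it, 9.33% higher and 7.43% lower. In mononuclear phagocytes 6 were judged, with *Pdgfa* higher and *Fgfr1* and *Pdgfb* lower, where 11.1% of all genes were past it, 2.53% higher and 8.53% lower. In dendritic cells *Pdgfb* was the lower 1 of 4, where 6.23% of all genes were past it, 3.26% higher and 2.97% lower. This *Pdgfb* ratio (-0.60 [-1.03 to -0.17]) was only just past 1.5-fold and was not recomputed under the alternatives. None of 4 in Schwann cells, 2 in mural cells or 1 in endothelial cells was past 1.5-fold, against 3.32%, 8% and 6.71% of all genes judged in those classes. The median log2 ratio of the members was -0.11 in mesenchymal cells, -0.03 in myogenic cells and -0.02 in phagocytes, and that of all genes judged was -0.02, 0.01 and -0.04.

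The other genes of the pathways were judged in the same way. Of 32 with 100 UMIs in mesenchymal cells, 1 was higher in SPP1-nAb and 3 were lower (4.78% and 5.83% of all genes), with a median log2 ratio of -0.06 against -0.02. Of 22 in myogenic cells, 0 were higher and 5 were lower (9.33% and 7.43% of all genes), with a median log2 ratio of -0.33 against 0.01 for all genes. Of 22 in phagocytes, 3 were higher and 5 lower (2.53% and 8.53% of all genes), with a median of -0.23 against -0.04. In Schwann cells 0 of 14 were higher and 1 was lower (1.41% and 1.92% of all genes). In mural cells 1 of 4 was higher and 2 were lower (4.54% and 3.46%). In T and NK cells the 1 gene judged was lower (8.32% of all genes were past 1.5-fold, 3.61% higher and 4.71% lower). None of 10 in dendritic cells was past 1.5-fold (3.26% of all genes higher and 2.97% lower). Nor was any of 5 in endothelial cells (2.98% of all genes higher and 3.73% lower) or of 2 in neutrophils (9.88% past it, 5.31% higher and 4.57% lower).

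The widest difference among these was that of *Fgf10*, a mesenchymal ligand of the FGF7 group. It had 44.0 (40.7 to 47.5) CPM from 646 UMIs in IgG and 5.46 (4.07 to 7.18) CPM from 51 UMIs in SPP1-nAb mesenchymal cells, a log2 ratio of -3.01 [-3.45 to -2.60]. It was 50.9 and 5.26 CPM in FAP-type cells and 54.4 and 11.1 CPM in adventitial-type cells, and 0 UMIs were found in the 509 and 333 tenocyte-type cells. With cells thinned to 2000 UMIs, 7.70% and 1.57% of mesenchymal cells had a *Fgf10* UMI (13.3% and 3.11% unthinned). The 10 cells with most *Fgf10* held 9.44% and 35.3% of its UMIs, and without them the ratio was -3.49. Of the other FGF ligands in mesenchymal cells, *Fgf18* was 35.1 and 28.5 CPM, *Fgf1* 12.3 and 8.35 CPM and *Fgf9* 7.02 and 8.24 CPM. *Fgf5* was found in Schwann cells (91.2 and 107 CPM) and *Fgf13*, an intracellular FGF homolog, in myogenic cells (48.4 and 36.5 CPM).

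*Spry2*, a feedback inhibitor of the ERK cascade, was lower in SPP1-nAb by more than 1.5-fold in all 6 classes with at least 100 of its UMIs. It was 292 (284 to 301) CPM in IgG and 135 (128 to 143) CPM in SPP1-nAb mesenchymal cells (-1.11 [-1.20 to -1.02]). It was 325 and 192 CPM in Schwann cells (-0.76 [-0.98 to -0.54]), 162 and 73.3 CPM in myogenic cells (-1.15 [-1.38 to -0.92]), and 259 and 102 CPM in mural cells (-1.34 [-1.91 to -0.79]). Mononuclear phagocytes had 10.1 and 4.70 CPM (-1.10 [-1.31 to -0.90]). T and NK cells had 388 and 176 CPM from 53 and 49 UMIs, and without the 10 cells with most *Spry2* their ratio was -0.38. In mesenchymal cells thinned to 2000 UMIs, 39.99% and 21.8% had a *Spry2* UMI (59.2% and 47.3% unthinned).

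Other targets and inhibitors of the cascade differed in fewer classes. With *Spry2* counted in, 4 of 7 judged in phagocytes were lower and 0 higher (8.53% and 2.53% of all genes). In myogenic cells 3 of 7 were lower and 0 higher (7.43% and 9.33%), and in mesenchymal cells 1 of 10 and 0 (5.83% and 4.78%). *Spry1* was lower in myogenic cells (192 and 73.6 CPM, -1.38 [-1.61 to -1.16], and -0.79 at 2000 UMIs per cell) and near level in mesenchymal cells (90.0 and 81.9 CPM). It was also lower by more than 1.5-fold in phagocytes, where 0.522% and 0.328% of cells had a UMI of it. The phosphatase gene *Dusp6* was 66.8 and 28.0 CPM in phagocytes (-1.26 [-1.34 to -1.17]), 47.6 and 32.0 CPM in mesenchymal cells and 92.8 and 91.7 CPM in Schwann cells. The transcription factor gene *Etv1* was 48.8 and 25.2 CPM in phagocytes (-0.95 [-1.05 to -0.86]), and -0.48 with the subsets mixed as in IgG. *Spred1* was 164 and 218 CPM in mesenchymal cells and 175 and 129 CPM in phagocytes.

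Immediate early and heat shock genes, which respond to tissue dissociation, also differed between libraries. As a sum, these genes differed in most classes, but little in Schwann and mural cells. Their summed level over 14 genes, a list chosen after the values were seen, had a log2 ratio of -0.23 in mesenchymal cells, -0.06 in Schwann cells, -0.05 in mural cells, -1.04 in myogenic cells and -0.53 in phagocytes. Of the 14, the number lower in SPP1-nAb was 10, 10, 6, 14 and 13 in these classes. The summed ratio was -0.43 in endothelial cells, -0.45 in neutrophils, -0.31 in dendritic cells and -0.22 in T and NK cells. Whether dissociation or something else lay behind these differences was not tested. The part of these 14 genes in the *Spry2*, *Spry1*, *Dusp6* and *Fgfr1* values was not tested either.

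**Figure D5:**
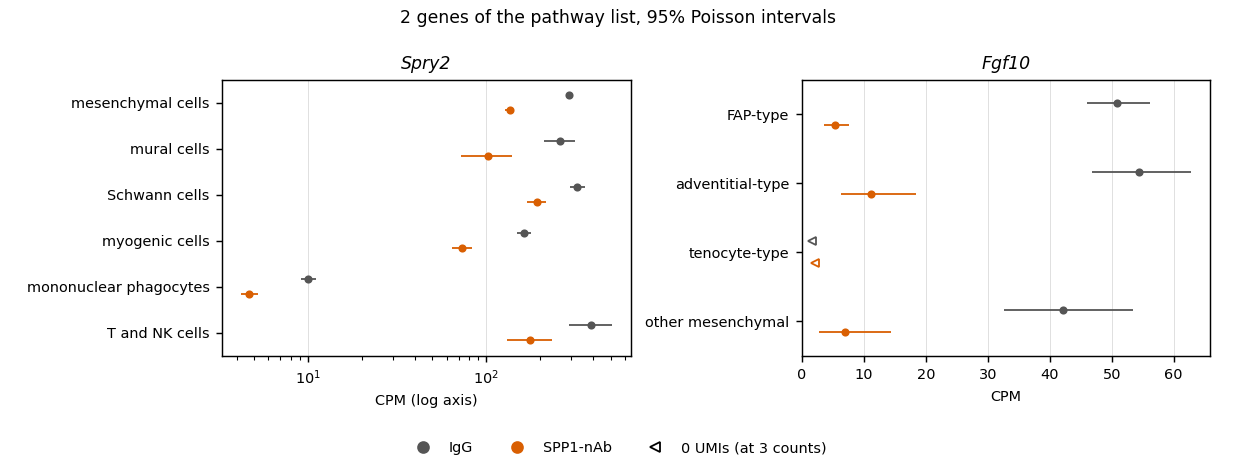
Left, *Spry2* CPM (log axis) in the 6 classes with at least 100 UMIs. Right, *Fgf10* CPM in mesenchymal subsets, with open triangles for 0 UMIs at the level of 3 counts. IgG is gray, SPP1-nAb orange and lines are 95% Poisson intervals. Every SPP1-nAb *Spry2* value lay below its IgG value.

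The co-receptors, proteases and remaining PDGF genes had levels in several classes. The syndecan gene *Sdc4*, a heparan sulfate co-receptor carried by satellite cells, was 1291 and 684 CPM in myogenic cells (-0.92 [-0.99 to -0.84]) but -0.55 at 2000 UMIs per cell. *Fgfr4* was 157 and 110 CPM there (-0.52 [-0.72 to -0.31]). The glypican gene *Gpc1* was highest in Schwann cells (338 and 386 CPM). The HGF activator *Plau* was 95 and 56.0 CPM in phagocytes (-0.76 [-0.82 to -0.70]) and 127 and 159 CPM in mesenchymal cells. *Spint1*, listed with it among the HGF activators and inhibitors, was 1.09 and 1.93 CPM in phagocytes. *Pdgfd* was 325 and 353 CPM in endothelial cells and 61.0 and 35.7 CPM in mesenchymal cells (-0.77 [-0.96 to -0.59]), and *Pdgfc* was 63.6 and 65.2 CPM in phagocytes. *Pdgfrl*, a receptor-like gene, was the higher gene in mesenchymal cells, at 82.3 and 142 CPM (0.79 [0.68 to 0.90]), while in myogenic cells it was 62.1 and 37.1 CPM.

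Genes with the most similar pattern were taken by Pearson's correlation of log2(CPM + 1) over 18 points, 9 classes in 2 libraries, among 10537 genes. The members, all class, check and subset markers, and mitochondrial, ribosomal, Gm and Rik genes were left out of these 10537. The points share their libraries and depth, so r is a description. *Pdgfra* was most like *Fetub* (r = 0.971) and *Ptgfr* (0.969), *Fgf2* like *Arhgap20* (0.977) and *Scn7a* (0.951), and *Fgf7* like *Sfrp1* (0.954). *Pdgfa* was most like *Zfp777* (0.958), *Pdgfrb* like *Aspn* (0.951), *Fgfr1* like *Nfix* (0.939) and *Fgfr2* like *Gprc5b* (0.943). *Met* (*Pdlim4*, 0.894), *Pdgfb* (*Ybx1*, 0.896) and *Hgf* (*Aig1*, 0.889, and *Ccl2*, 0.883) had no gene above 0.9 among the 10537.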

How the data were processed

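Live cells were sorted and captured by 10x droplets, polyA RNA was sequenced, and the authors deposited counts: UMIs per gene and barcode. The labels name Cell Ranger 8.0.0 and GRCm39, the matrix headers of the deposited counts give 9.0.1, and the study's methods also name GRCm38. The counts came with 23779 IgG and 25069 SPP1-nAb barcodes (97607674 and 127719916 UMIs), and 163 barcodes were shared.

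Cells with over 200 genes and under 10% mitochondrial UMIs were kept, minus the 10% highest doublet scores (own scorer, 2 simulated doublets per barcode, 50 neighbors, 30 principal components). Median depth was 3610.5 and 4532 UMIs. A cell took the class with most detected markers of 8 (at least 3, and 2 more than the next), which gated 80.4% and 82.8% of cells. It took the subset with most markers of 6 (at least 2). No batch integration was used. Free RNA, estimated from markers of other classes, was 0.744% to 12.5% of a class in IgG and at most 5.43% in SPP1-nAb.

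Ratios compare 1 library with 1 library, without a test. A leading class needed 100 cells in each library. Named were the 10 genes in all classes, pathway genes with 100 UMIs in a class, and for likeness up to 3 genes with 500 UMIs per member. The members and lists were chosen with earlier results of these data known. Thinned levels are means over draws. Scripts were tested on simulated data (Python 3.11.15, numpy 2.4.6, scipy 1.17.1, scikit-learn 1.9.0, leidenalg 0.10.2). Alternatives covered gates, doublets, cell filters, free RNA, clusters (Leiden, resolution 1) and depth. Subset mix and the 10 top cells were added after seeing the data.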

Additional observations from a re-analysis of the deposited data

Results flagged for a closer look

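*Fgfr1* differed between the libraries in opposite directions in different classes. The log2 ratio of SPP1-nAb over IgG was 0.20 in mesenchymal cells, -1.30 in mononuclear phagocytes, -0.71 in myogenic cells and -0.44 in dendritic cells. The mesenchymal and dendritic values were short of 1.5-fold, the mesenchymal one under every alternative (0.15 to 0.24). With the IgG subset mix the phagocyte ratio was -0.68. The myogenic ratio stayed past 1.5-fold in 8 of 13 alternatives. Each class had 1 library per treatment, so the difference between classes was not tested.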

How the results depend on the processing

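Ratios of the 10 genes were recomputed under 13 alternatives (12 for classes with no subsets), and 180 of 191 values stayed within the counting interval of the reported one and none changed direction past 1.5-fold. The 11 that moved were as follows. In myogenic cells *Fgfr1* was -0.85 with 4 gate markers, -0.56 with a lead of 1 marker, -0.56 with 20% of doublet scores removed, -0.38 with classes from clusters, -0.43 thinned to 2000 UMIs and -0.57 with the IgG subset mix. In phagocytes *Fgfr1* was -1.13 with no doublets removed and -0.68 with the IgG subset mix, which by its construction removes the change in subset shares, and *Hgf* was -0.16 with that mix. In mesenchymal cells thinned to 2000 UMIs, *Fgf7* was -0.62 and *Pdgfra* -0.35. For the others the cause was not tested. Of 242 values for pathway genes, 225 stayed and 17 moved, and no ratio past 1.5-fold changed direction. *Fgf1* in mural cells, at 0.00 [-0.63 to 0.64], was -0.24 with classes from clusters and 1.01 under 5% mitochondrial UMIs. The leading class was kept in 107 of 110 checks. Mural cells (135 in IgG and 96 in SPP1-nAb) were too few to be a leading class or its rival in these checks. The *Pdgfrb* checks thus compared mesenchymal with endothelial cells and cannot show whether mural cells, its highest class, kept that place. Those of *Pdgfa* compared Schwann cells with myogenic cells and not with mural cells. For *Fgfr1*, mesenchymal cells fell below myogenic cells with clusters (log2 level -0.17), without mitochondrial and ribosomal UMIs (-0.14) and thinned (-0.25), and the cause was not tested. No paired analysis was possible because each treatment had 1 library, and for the same reason no replicate could be left out. Few cells or UMIs limit the mural, endothelial, neutrophil and T and NK cell values.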
